A study of Mus musculus with 9 samples.

Results

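The windows of chromosomes 12 and 14 are the stretches of these mouse chromosomes in which the authors of a ChIP-seq series measured reads from 2 pancreatic endocrine cell lines. Every window that the deposited table places on either chromosome was taken, which gave 666 windows on chromosome 12 and 563 on chromosome 14, 1229 of 17641 in all. The chromosomes were chosen by the measured change from alphaTC1 to betaTC3, whose windows were higher in betaTC3 along their length, so the betaTC3 change below is a description and carries no test. The change is given along each chromosome in bins of 5 Mb by window centre, bin 1 starting at the chromosome start, together with the genes that depart from it.

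The study set betaTC3, a murine pancreatic beta cell line labelled as untreated (n = 2), beside alphaTC1, a murine pancreatic alpha cell line. The alphaTC1 cells had been transduced for 5 days either with an empty vector (n = 2) or with short hairpin RNAs against Smndc1, a splicing factor related to SMN (n = 2). Chromatin was precipitated with an antibody labelled H3K9me3, and 1 input sample per group brings the series to 9 samples. Separate cultures for the replicates are not named in the labels, so the spread between them may be technical, each line stands for a single line, and betaTC3 differs from the empty-vector cells in both line and transduction.

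Trimethylation of lysine 9 of histone H3 is known as a mark of constitutive heterochromatin. It is laid down by methyltransferases such as SUV39H1 and SETDB1, is bound by HP1 proteins, and is found over pericentromeric repeats, retrotransposons, zinc finger gene clusters and genes kept silent in a lineage. In endocrine islet cells, alpha cells produce glucagon and beta cells produce insulin, and the hormone gene of the other type is silent in each.

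On these chromosomes most windows lay near gene starts, while repeats and zinc finger clusters were not examined. On chromosome 12, 445 of 666 windows (66.8%) and on chromosome 14, 396 of 563 (70.3%) lay within 1 kb of the start of their assigned gene, and 133 and 97 lay more than 10 kb away. The 6 windows of highest level, 3 per chromosome, include those at the starts of Pnn and Srsf5, whose proteins act in splicing, and of Vdac2, a mitochondrial channel, all genes that most cells use. Markers of the labelled lines were high in their own line. The glucagon gene Gcg held 340 and 352 scaled reads in empty-vector alphaTC1, 352 and 421 after knockdown and 0 in both betaTC3 libraries, while the insulin gene Ins1 held 354 and 314 in betaTC3 and at most 1.32 in any alphaTC1 library. Irx1 and Pou3f4, transcription factors of alpha cells, were high in alphaTC1 and at no more than 1.90 in betaTC3, and Pdx1 and Mafa, of beta cells, were high in betaTC3. Irx2 and Nkx6-1 were present in both lines, and Ins2 has no window. The labelled mark is known at genes kept silent, among other places. Gcg and Ins1 were instead high in the line of the cell type that produces the hormone. The libraries are called here by their label, and which mark they carry was not tested. A scaled read is a whole read multiplied by 1 scaling factor per library, with values of 1.32 and 0.888 in empty-vector, 1.19 and 1.40 in knockdown and 0.799 and 0.952 in betaTC3 libraries. Libraries held 4530066 to 9924487 reads in all windows.

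Promoters are shown for the windows at a gene start that stood farthest above and farthest below their bin on each chromosome, to let their base composition be compared. Each runs from 250 bases before to 50 after the start in RefSeq (GRCm38.p6), 5′ to 3′ on the gene's strand, with every CpG in capitals.
Meox2, chr12:37108290-37108589, plus strand: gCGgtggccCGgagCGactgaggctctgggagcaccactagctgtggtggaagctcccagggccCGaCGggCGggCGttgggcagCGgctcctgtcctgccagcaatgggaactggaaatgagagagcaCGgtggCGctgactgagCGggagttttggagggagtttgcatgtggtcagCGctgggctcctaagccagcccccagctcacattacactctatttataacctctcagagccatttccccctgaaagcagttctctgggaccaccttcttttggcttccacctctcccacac
Akap6, chr12:52699133-52699432, plus strand: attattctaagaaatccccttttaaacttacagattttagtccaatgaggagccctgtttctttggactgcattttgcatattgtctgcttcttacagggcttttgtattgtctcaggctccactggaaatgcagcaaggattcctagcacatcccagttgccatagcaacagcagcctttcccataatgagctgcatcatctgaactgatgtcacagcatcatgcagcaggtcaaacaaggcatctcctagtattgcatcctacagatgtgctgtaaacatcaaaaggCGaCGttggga
Thrb, chr14:17660710-17661009, plus strand: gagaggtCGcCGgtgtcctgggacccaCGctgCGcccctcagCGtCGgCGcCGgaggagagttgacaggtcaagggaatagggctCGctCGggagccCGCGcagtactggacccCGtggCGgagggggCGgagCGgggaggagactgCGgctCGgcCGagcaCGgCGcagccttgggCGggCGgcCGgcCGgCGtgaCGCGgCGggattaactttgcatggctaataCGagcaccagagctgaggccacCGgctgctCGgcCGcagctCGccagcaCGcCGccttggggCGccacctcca
Cacna2d3, chr14:29721815-29722114, minus strand: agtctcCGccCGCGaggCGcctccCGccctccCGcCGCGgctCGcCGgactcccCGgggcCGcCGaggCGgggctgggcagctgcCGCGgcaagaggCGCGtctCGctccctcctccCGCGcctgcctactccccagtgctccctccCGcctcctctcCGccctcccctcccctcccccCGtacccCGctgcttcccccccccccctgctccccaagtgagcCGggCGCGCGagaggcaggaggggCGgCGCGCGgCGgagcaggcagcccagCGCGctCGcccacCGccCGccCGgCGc

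These 4 promoters differ in base composition. Meox2 and Akap6 hold 12 and 2 CpG with a GC content of 60.7% and 43.7%, and Thrb and Cacna2d3 hold 37 and 41 CpG. The windows measured in the ChIP lay 377, 356 and 70 bases from the printed promoter for Meox2, Akap6 and Cacna2d3 and overlapped it by 87 bases for Thrb. A RefSeq promoter of the same gene lay within 1 kb of 580 of the 841 gene-start windows of both chromosomes. Their median was 24 CpG, against 7 in all 32851 RefSeq promoters of the same length.

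Motifs were searched by their letters on both strands. The sets below are counted by window, so a promoter matched to several windows counts each time. TATAAA was found in 19.6% of the 51 matched promoters more than 3 above their bin in log2 and in 4.17% of the 456 within 1 of it, against 13.6% of all promoters. It was found in no promoter of the 14 matched windows more than 3 below their bin, which is too few to place the share. GGGCGG and CCAAT were found in 58.8% and 35.3% of the 51, in 71.1% and 39.5% of the 456, and in 35.7% and 37.4% of all. The NRF1 motif, also searched, was found in 0% of the 51, 1.54% of the 456 and 0.971% of all. Promoters above their bin had a median of 20 CpG and those within 1 of it 25, and the windows behind them differed in level, with medians of 42.2 and 586 scaled reads. A match is a string of letters in this stretch of promoter and not a binding site.

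Chromosomes 14 and 12 ranked first and second of the 20 chromosomes by the median change from empty-vector alphaTC1 to betaTC3, on the scale of log2(scaled reads + 1). The median was 0.68 on chromosome 14 and 0.42 on chromosome 12, while it was -0.13 over all windows. The next chromosome, 18, stood at 0.24 and the lowest, 11 and 7, at -0.72 and -0.59. The lower and upper quartiles were -0.030 and 1.04 on chromosome 12 and 0.21 and 1.44 on chromosome 14. The change was above 0 in 74.5% and 81.3% of the windows, against 43.7% of all.

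Each betaTC3 library showed the shift on its own. Against the empty-vector mean, betaTC3 library 1 had a median of 0.47 on chromosome 12 and 0.73 on chromosome 14, and library 2 of 0.34 and 0.58. Median levels on chromosome 12 were 267 scaled reads with the empty vector, 214 after knockdown and 382 in betaTC3, and on chromosome 14 they were 225, 179 and 374. Over all windows the same medians were 319, 247 and 286. Chromosome 12 took 3.15% and 3.14% of the reads of the empty-vector libraries, 3.08% and 3.10% of the knockdown libraries and 4.92% and 4.81% of the betaTC3 libraries. Chromosome 14 took 1.90%, 1.90%, 1.88%, 1.89%, 3.36% and 3.32% in the same order. The shares of both alphaTC1 groups lay close together and those of betaTC3 lay above them. Input reads were not compared by chromosome, and the amount of DNA of each chromosome in either line was not tested.

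**Figure D1:**
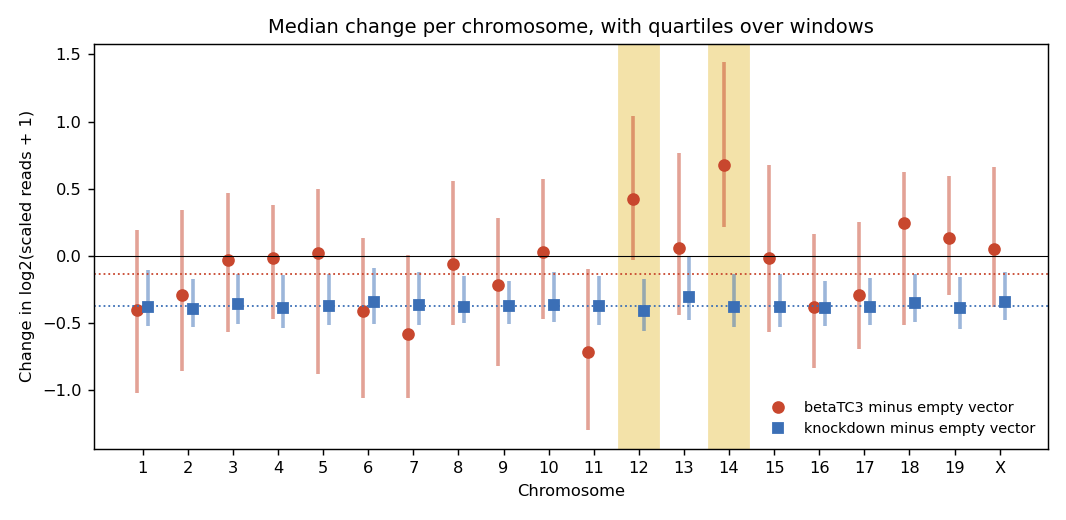
Median change in log2(scaled reads + 1) of the windows of each chromosome, with bars from the lower to the upper quartile over windows, for betaTC3 minus empty vector (circles) and knockdown minus empty vector (squares). Dotted lines mark the medians over all windows, -0.13 and -0.37, and shading marks chromosomes 12 and 14, whose circles stand at 0.42 and 0.68 while their squares stand at -0.41 and -0.38.

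The higher level in betaTC3 was also there against the knockdown libraries. The median of betaTC3 minus knockdown was 0.82 on chromosome 12 and 1.07 on chromosome 14, beside 0.23 over all windows. This comparison shares the betaTC3 libraries with the one above, so the values stand side by side. Between betaTC3 and empty vector limma called 264 windows higher and 107 lower on chromosome 12, and 335 higher and 63 lower on chromosome 14, at an adjusted p below 0.05. Over all windows 22.1% were called higher and 33.2% lower. Since this contrast chose the chromosomes, nothing is read from these counts. With libraries centred on their medians they were 445 higher and 100 lower, and 415 higher and 59 lower. On the recovered reads edgeR called 450 higher and 100 lower on chromosome 12 and 419 and 59 on chromosome 14, beside 35.3% and 32.6% of all windows. DESeq2 called 442 and 91, and 406 and 57, beside 34.4% and 27.5%.

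Chromosome 12 was shifted along nearly all of its length. Of its 24 bins, 22 had a median above 0, and the 16 bins with at least 20 windows ran from -0.32 to 0.86, 15 of them above 0. The highest of these was bin 1, from 0 to 5 Mb, at 0.86, followed by bin 12, from 55 to 60 Mb, at 0.59. The betaTC3 libraries 1 and 2 differed there, at 0.89 and 0.49 in bin 1 and at 0.90 and 0.36 in bin 12. In library 2 alone, bin 6, from 25 to 30 Mb, stood above bin 12, at 0.39. From 65 Mb on, leaving out the last bin and the thin bin at 90 to 95 Mb with 8 windows, the bin medians lay between 0.29 and 0.53. Only bins 3 and 5 were below 0, at -0.11 and -0.32. Restricted to windows with a mean of at least 100 scaled reads over the 6 libraries, all 24 bins were above 0, from 0.081 to 0.93, so both bins turned sign, to 0.081 and 0.36.

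Chromosome 14 had the higher median. Its 13 bins with at least 20 windows were all above 0, from 0.43 to 1.06. The highest was bin 4, from 15 to 20 Mb, at 1.06, then bin 11, from 50 to 55 Mb, at 0.95, and bin 10, from 45 to 50 Mb, at 0.84. This order depended on the library. Bin 4 was at 1.10 in betaTC3 library 1 and at 0.74 in library 2, where bins 11 and 2 stood at 0.76 and 0.75. From 65 to 80 Mb the medians were 0.43, 0.50 and 0.46. The other 12 bins ranged from -3.92, in bin 1 with 2 windows, to 6.88, in bin 17 with 3 windows.

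**Figure D2:**
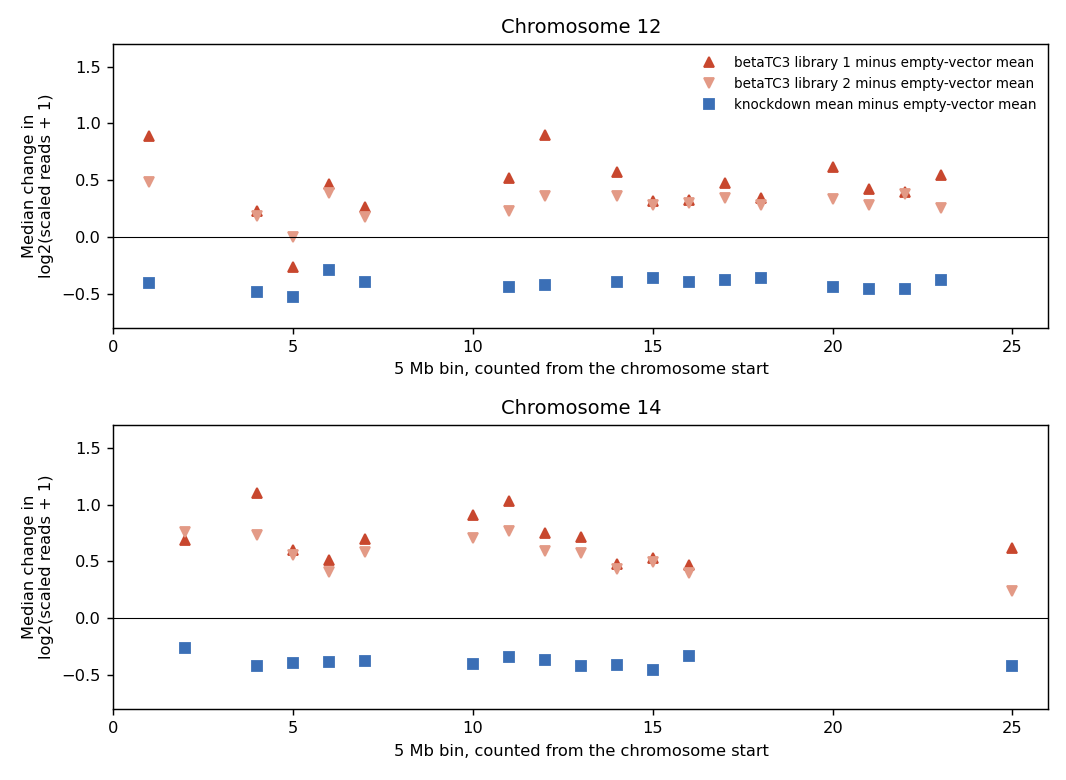
Median change in log2(scaled reads + 1) by 5 Mb bin along chromosome 12 (top) and chromosome 14 (bottom), for bins with at least 20 windows. Triangles are betaTC3 library 1 (up) and library 2 (down) minus the empty-vector mean and squares are the knockdown mean minus the empty-vector mean. On chromosome 14 the triangles lie between 0.24 and 1.10 and on the deposited scaling all squares lie below 0.

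Among the sparse bins of chromosome 14, bins 17 and 23 stood far above 0, at 6.88 over 3 windows and 4.74 over 7. Pseudogenes make up 2 of the 3 and 4 of the 7, and the windows at protein-coding genes named next were chosen after their values were seen. In bin 17, from 80 to 85 Mb, the window 1605 bp from the start of Pcdh17, a protocadherin, held 0 and 3.55 scaled reads with the empty vector, 2.39 and 0 after knockdown and 504 and 584 in betaTC3. In bin 23, from 110 Mb on, Slitrk6, a transmembrane protein of neurite outgrowth, held 17.2 and 12.4, then 28.7 and 30.7, then 383 and 453. Its neighbour Slitrk5 held 216 and 210 with the empty vector, 186 and 180 after knockdown and 637 and 624 in betaTC3 at its start. Each of these 3 windows was higher in both betaTC3 libraries than in any alphaTC1 library.

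Bin 22 of chromosome 14, up to 110 Mb, went the other way, with a median of -1.53 over 8 windows, and of -0.42 over the 5 with a mean of at least 100 scaled reads. Spry2, an inhibitor of receptor tyrosine kinase signalling, held 588 and 581 scaled reads with the empty vector, 437 and 493 after knockdown and 125 and 99.9 in betaTC3. Slitrk1 held 218 and 247, then 196 and 207, then 188 and 161. In the same bin Rbm26 and Ndfip2 were higher in betaTC3, at 1358 and 795 against 572 and 573, and at 904 and 486 against 442 and 408.

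Windows of high mean level were mostly close to their bin. On both chromosomes together, 86.01% of the 772 windows with a mean of at least 100 scaled reads were within 1 of the bin median in log2, and 25.8% of the 457 below that level. By position, 74.8% of the 841 gene-start windows and 37.0% of the 230 windows more than 10 kb from a start were within 1, and their median levels were 453 and 36.7 scaled reads. On chromosome 12, 91 windows stood more than 3 above their bin and 56 more than 3 below it, and on chromosome 14, 80 and 37. Over all windows 11.8% stood above and 6.7% below, beside 13.7% and 8.41% on chromosome 12 and 14.2% and 6.57% on chromosome 14.

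**Figure D3:**
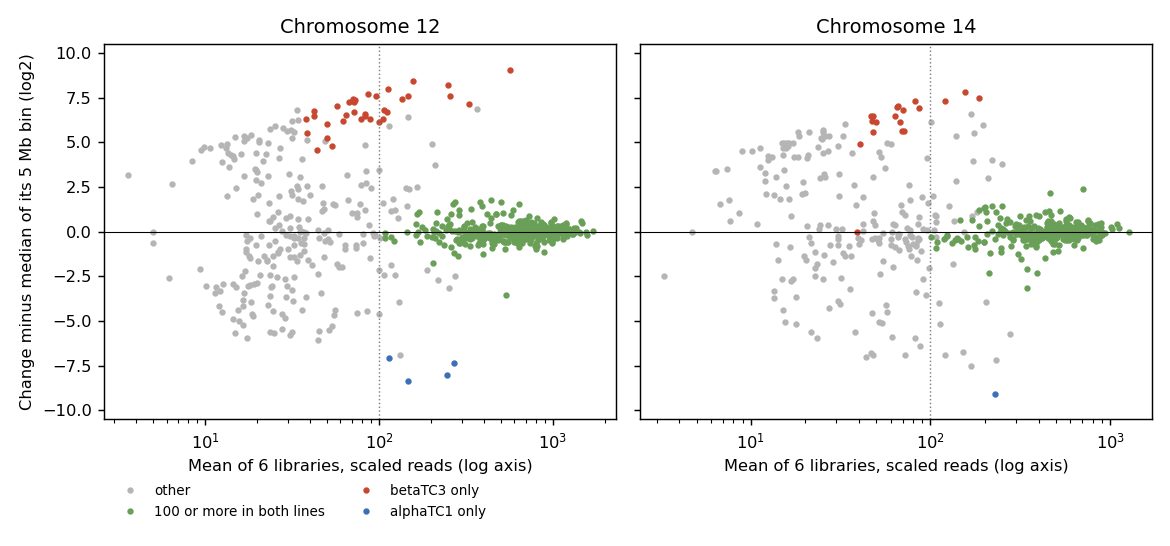
Departure of each window's betaTC3 minus empty-vector change from the median of its 5 Mb bin (log2, vertical) against its mean over the 6 libraries (scaled reads, log axis), for chromosome 12 (left) and chromosome 14 (right). Colours mark windows held by both lines, by 1 line only and all others, and the dotted line marks 100 scaled reads, to the right of which 86.01% of the windows lie within 1 of their bin.

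A small class of windows was near 0 in 1 line and high in the other. Defined after the values were seen, betaTC3-only windows had at most 3 reads in each empty-vector library and at least 100 scaled reads in each betaTC3 library, and alphaTC1-only windows the reverse. Chromosome 12 had 34 betaTC3-only and 4 alphaTC1-only windows and chromosome 14 had 19 and 1, against 2.68% and 0.72% of all windows. As shares these were 5.11% and 0.601% of chromosome 12 and 3.37% and 0.178% of chromosome 14. Over the whole table, 1028 and 926 windows were at 0 in the empty-vector libraries and 327 and 362 in the betaTC3 libraries. How far this enters the numbers of each class was not tested. Windows with group means of at least 100 in both lines numbered 376 and 321, against 57.2% of all. After knockdown, 30 of the 34 and 17 of the 19 betaTC3-only windows had at most 3 reads in each library, and all 5 alphaTC1-only windows had at least 100 scaled reads in each knockdown library. The names describe window values alone, since on chromosome 12 the peak lists of both empty-vector libraries had a peak over 4 of the 34, and those of both betaTC3 libraries over 2 of the 4 alphaTC1-only windows.

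The windows at gene starts farthest above their bin on chromosome 12 were led by a homeobox gene. Meox2, a transcription factor of muscle and vascular development (ENSMUSG00000036144, chr12:37108966-37109366 in mm10, 426 bp from the start), held 3.97 and 0 scaled reads with the empty vector, 0 and 0 after knockdown and 1699 and 1694 in betaTC3. The ratio of the pooled reads was 1064, with an exact 95% counting interval of 364 to 5164. Its change of 9.57 stood 9.04 above the median of its bin, which rests on 19 windows. Both betaTC3 peak lists of the authors had a peak over it, while the 4 alphaTC1 lists had none.

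The next on chromosome 12 were Gm26912, Zfp125, Syndig1l and Gm48398. The noncoding Gm26912 was at 0 in both empty-vector libraries and at 426 and 509 in betaTC3, at least 141-fold higher at the floor of 3 reads per library. Syndig1l was at 0 in all 4 alphaTC1 libraries and at 413 and 266 in betaTC3, at least 102-fold higher. Zfp125 held 2.65 and 1.78 against 800 and 685, and its window is also assigned to 3110053B16Rik. Zfp125 and Gm48398 lie in the pseudogene-rich segment described below, where window values and peaks disagree.

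Below its bin on chromosome 12, Akap6 stood farthest. Akap6 anchors protein kinase A in muscle and neurons. Its window (chr12:52699788-52700188, 405 bp from the start) held 234 and 260 scaled reads with the empty vector, 192 and 198 after knockdown and 0 in either betaTC3 library, at least 94.2-fold lower in betaTC3. The 4 alphaTC1 lists each had a peak over it, unlike the betaTC3 lists. Alkal2, a ligand of the receptor kinases ALK and LTK, held 181 and 174 with the empty vector, 97.9 and 134 after knockdown and 4.79 and 11.4 in betaTC3. Between them in rank came Gm48667, Gm49330 and Gm5784, all from the pseudogene-rich segment.

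On chromosome 14 the windows farthest above their bin sat at Thrb, Hs6st3, Neil2, Fam124a and Gm49024. Thrb, a thyroid hormone receptor (chr14:17660396-17660796, 100 bp from the start), was at 0 in both empty-vector libraries, at 1.19 and 0 after knockdown and at 458 and 473 in betaTC3, at least 140-fold higher. Neil2, a DNA glycosylase of base excision repair, was at 0 in all 4 alphaTC1 libraries and at 244 and 249 in betaTC3, at least 74.3-fold higher. Hs6st3, a heparan sulfate sulfotransferase, held 2.65 and 0.888 against 663 and 453, a ratio of the pooled reads of 356 with an exact 95% counting interval of 121 to 1727. Fam124a was at 0 against 216 and 175, and the noncoding Gm49024 at 0 against 125 and 153.

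Below its bin on chromosome 14, Cacna2d3 stood farthest, at -9.12 from the bin median. Cacna2d3 is an auxiliary subunit of voltage-gated calcium channels. Its window (chr14:29722184-29722584, 320 bp from the start) held 410 and 385 scaled reads with the empty vector, 270 and 309 after knockdown and 0 in either betaTC3 library, at least 152-fold lower. Peli2, an E3 ubiquitin ligase of Toll-like receptor signalling, held 391 and 436 against 7.99 and 1.90. Gng2, a G protein gamma subunit, held 120 and 129 against 0 and 3.81. Gm48162 and Gm8281 completed the 5, at 254 and 306 against 0.799 and 4.76, and at 212 and 217 against 0.799 and 3.81.

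**Figure D4:**
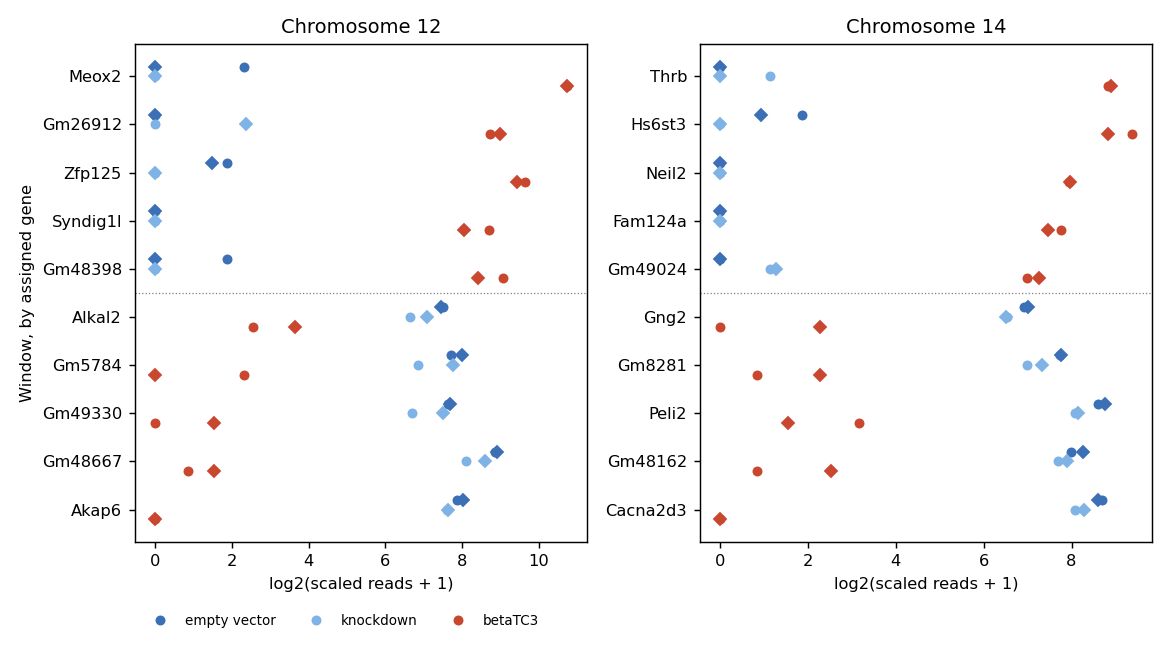
Level of the 5 gene-start windows farthest above (upper rows) and below (lower rows) their 5 Mb bin on chromosome 12 (left) and chromosome 14 (right), as log2(scaled reads + 1). Each point is 1 library (circle, library 1; diamond, library 2) of the empty vector, knockdown or betaTC3. In the upper rows both alphaTC1 groups lie near 0, and in the lower rows betaTC3 does.

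In each of these 20 windows both betaTC3 libraries lay outside the range of the empty-vector libraries, which the rule for naming them required. Just beyond the named windows, the next departures were 7.58 above and -4.56 below on chromosome 12 and 6.14 above and -6.76 below on chromosome 14. The rule drew from 347 and 311 windows. The next examples, 5 in number, were chosen after their values were seen. Ston2, an endocytic adaptor, held 3.97 and 2.66 scaled reads with the empty vector and 939 and 1007 in betaTC3, in a window 7512 bp from its start. Prkcd, a protein kinase C, held 6.62 and 3.55 against 575 and 568, and Slc18a3, the vesicular acetylcholine transporter, 0 and 0.888 against 158 and 139. Mir17hg, the host of the miR-17 to miR-92 cluster, held 134 and 122 against 0 and 4.76. Hr, a nuclear corepressor, held 177 and 201 with the empty vector, 50.2 and 90.8 after knockdown and 3.99 and 0.952 in betaTC3.

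Genes that all cells use stayed close to their bins. Of 23 listed genes for ribosomal proteins, proteasome subunits, chaperones and the like, 19 had a window, and the nearest window was higher in both betaTC3 libraries than in both empty-vector libraries in 19 of 19. Of all windows 34.1% were higher and 48.7% lower in this sense, of those on chromosome 12 68.0% and 21.2%, and of those on chromosome 14 76.0% and 14.9%. The chromosomes were chosen on this contrast, so nothing is read from such counts here or in the lists that follow. Their median change was 0.79, from 0.30 at Rps29 to 1.60 at Srp54a, and 18 of 19 were within 1 of their bin. Rps29, a ribosomal protein gene, held 800 and 850 scaled reads with the empty vector, 552 and 721 after knockdown and 1039 and 989 in betaTC3. Vdac2 held 907 and 982, then 666 and 889, then 1637 and 1638. Psmb5, a catalytic proteasome subunit, held 335 and 359, then 265 and 324, then 935 and 898.

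The windows of highest level on each chromosome were also close to their bins. Srsf5 held 1475 and 1538 scaled reads with the empty vector and 2108 and 1900 in betaTC3, Pnn 1538 and 1584 against 2205 and 1947, and the antisense RNA 1110002L01Rik 1385 and 1465 against 2641 and 2661. On chromosome 14, Bap1, a deubiquitinase of histone H2A, held 1131 and 1168 against 1815 and 1758, Vdac2 is given above, and 1700001G11Rik held 939 and 886 against 1782 and 1537. Each of these 6 was within 0.43 of its bin median. The strands were not separated in ChIP, so an antisense RNA and its partner share a window.

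Most chromatin and transcription regulators were close to their bins. Of 22 listed genes 20 had a window, 19 were higher in betaTC3 without overlap of the libraries and 1 was lower. Higher windows made up 34.1% of all, 68.0% of chromosome 12 and 76.0% of chromosome 14, and lower ones 48.7% of all. The median change was 0.60, and 18 of 20 were within 1 of their bin, all but Hdac9 and Dnmt3a. Yy1, a zinc finger transcription factor, held 1202 and 1163 scaled reads with the empty vector, 646 and 929 after knockdown and 2815 and 1922 in betaTC3. Hdac9, a class IIa histone deacetylase, was the lower one at 298 and 304, then 156 and 204, then 119 and 52.3. Dnmt3a, a DNA methyltransferase, had the largest change of the list, 2.39, but its betaTC3 libraries held 2869 and 390, against 221 and 183 with the empty vector and 49.0 and 104.8 after knockdown.

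That gap between the betaTC3 libraries recurred. Among windows with a mean of at least 100 scaled reads, the betaTC3 libraries differed by more than 2-fold in 25 of 416 (6.01%) on chromosome 12 and 14 of 356 (3.93%) on chromosome 14, against 4.39% of all such windows. Library 1 was the higher in 22 and in 11 of them, and in 3.97% of all, with library 2 higher in 0.423%. The empty-vector libraries differed by as much in 4 and 7 windows (0.82% of all) and the knockdown libraries in 4 and 5 (0.617% of all). Ube2e1, a ubiquitin-conjugating enzyme, held 1584 and 358 in betaTC3 and 266 and 233 with the empty vector, and Tsc22d1 1091 and 211 against 240 and 200. For Tsc22d1 the betaTC3 and empty-vector libraries overlapped.

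Islet signalling and secretion genes held both windows near their bin and windows far above it. Of 22 listed genes 15 had a window, with a median change of 1.09, 14 higher and 1 lower in betaTC3 without overlap. In this sense 34.1% of all windows were higher and 48.7% lower, and 68.0% and 76.0% of those on chromosomes 12 and 14 were higher. Of the 15, 9 were within 1 of their bin. Among these, Chga, the granule protein chromogranin A, held 1164 and 1143 scaled reads with the empty vector, 719 and 974 after knockdown and 1587 and 1606 in betaTC3 at its start. Ptprn2, a phosphatase-like protein of secretory granules, held 653 and 723, then 426 and 518, then 1789 and 1207. Glud1, glutamate dehydrogenase, held 597 and 589, then 351 and 534, then 1478 and 1087.

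Others on the islet list departed further from their bins. Adcy3, an adenylate cyclase, was at 0 in both empty-vector libraries, at 1.19 and 0 after knockdown and at 107 and 79.9 in betaTC3, at least 28.2-fold higher. Kcns3, a modulatory potassium channel subunit, was at 0 in all 4 alphaTC1 libraries and at 95.03 and 107.5 in betaTC3, at least 30.5-fold higher. Slc7a8, an amino acid transporter, held 7.94 and 6.21, then 5.97 and 9.78, then 261 and 280. Vipr2, a receptor of the peptides VIP and PACAP, held 25.2 and 32.0, then 28.7 and 25.2, then 164 and 191. Nrxn3, a neurexin of synapses, was the single lower gene at 147 and 181, then 117 and 117, then 39.1 and 36.2.

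Developmental transcription factors included windows far above and far below their bins. Of 40 listed genes 20 had a window, 19 of them within 10 kb. Among these 13 were higher in betaTC3, 3 lower and 3 overlapping, with a median change of 0.58. Without overlap, 34.1% of all windows were higher and 48.7% lower, and 68.0% and 76.0% were higher on chromosomes 12 and 14. Of the nearest windows 11 were within 1 of their bin and 3 were betaTC3-only. Meox2 and Thrb, given above, are among the betaTC3-only windows. Six4, a homeobox factor, was close to its bin. It held 669 and 692 scaled reads with the empty vector, 548 and 634 after knockdown and 684 and 747 in betaTC3.

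Other genes of this list stood far from their bins in either direction. Foxa1, a pioneer factor of endodermal tissues, held 50.3 and 45.3 scaled reads with the empty vector, 33.4 and 29.3 after knockdown and 492 and 342 in betaTC3. On the other side, Gata4, a zinc finger factor of heart and endoderm, held 75.5 and 84.3, then 52.6 and 62.9, then 6.39 and 2.85, and Egr3, an immediate early factor, 72.8 and 94.99, then 83.6 and 85.2, then 3.19 and 5.71. Mycn, a Myc family factor, was lower too but within 1 of its bin, at 1100 and 950 with the empty vector and 731 and 645 in betaTC3.

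The imprinted Dlk1 to Dio3 cluster of chromosome 12 had a window for 1 of its 7 listed genes, Begain. Near its start Begain held 38.4 and 30.2 scaled reads with the empty vector, 51.4 and 55.9 after knockdown and 16.0 and 2.85 in betaTC3. This window departed from its bin by -2.53, and a further Begain window within 1 kb of the start by -1.87. Another Begain window, 14617 bp from the start, held 353 and 368, then 334 and 423, then 2.396 and 0, a ratio of the pooled reads of 278 lower in betaTC3 (exact 95% counting interval 94.7 to 1351). It was 1 of the 4 alphaTC1-only windows of chromosome 12.

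Windows assigned to the listed tandem gene families, which were set by name prefix, were few. The list holds 9 genes, kept after their values were seen, of which 7 were higher in betaTC3 without overlap and 1 lower. Beside this, 34.1% of all windows were higher and 48.7% lower, and 68.0% and 76.0% were higher on chromosomes 12 and 14. The median change of the list was 2.39, and 3 of its windows lay more than 10 kb from the gene start. Ighv12-3, an immunoglobulin variable segment whose window is 11810 bp away, held 1.32 and 0 scaled reads with the empty vector and 203 and 181 in betaTC3, yet all 6 peak lists had a peak over it. Rnase4, a secreted ribonuclease, held 87.4 and 119 against 517 and 560. Serpina3h, a serine protease inhibitor pseudogene, was the lower one at 39.7 and 55.0 with the empty vector, 9.56 and 0 after knockdown and 0 in both betaTC3 libraries.

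By gene class, 82.3% of the windows at protein-coding genes were above 0 on chromosome 12 and 83.7% on chromosome 14, beside 43.3% of all such windows. At noncoding genes it was 95 of 156 windows and 78 of 104, beside 43.2% of all. Of pseudogene windows on chromosome 12, 30 of 59 (50.8%) were above 0 with a median of 0.032, and on chromosome 14, 32 of 43 (74.4%) with a median of 1.75, beside 48.8% of all pseudogene windows. Of the 59 pseudogene windows of chromosome 12, bins 4 and 5, from 15 to 25 Mb, held 7 and 14, and bin 8 also held 7. Bins 4 and 5 together held 62 windows. Among these, 34 were pseudogenes or noncoding genes with a median change of -2.71, and 28 were protein-coding with a median of 0.20. Of the 34, 18 were lower by more than 2 and 9 higher by more than 2, while 19 of the 28 coding windows stayed between -1 and 1.

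Within that segment strong opposite changes lay next to ordinary genes. Gm48667 held 465 and 483 scaled reads with the empty vector, 276 and 389 after knockdown and 0.799 and 1.90 in betaTC3. Gm21989 held 1.32 and 2.66, then 0 and 0, then 457 and 357, and 1700030C10Rik held 15.9 and 7.102, then 2.39 and 12.6, then 1104 and 1050. Adam17, a membrane protease that releases cytokines, held 479 and 581, then 376 and 390, then 511 and 553, and Rrm2, a subunit of ribonucleotide reductase, 993 and 955, then 626 and 841, then 977 and 974. In these coding windows the betaTC3 and empty-vector libraries overlapped.

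**Figure D5:**
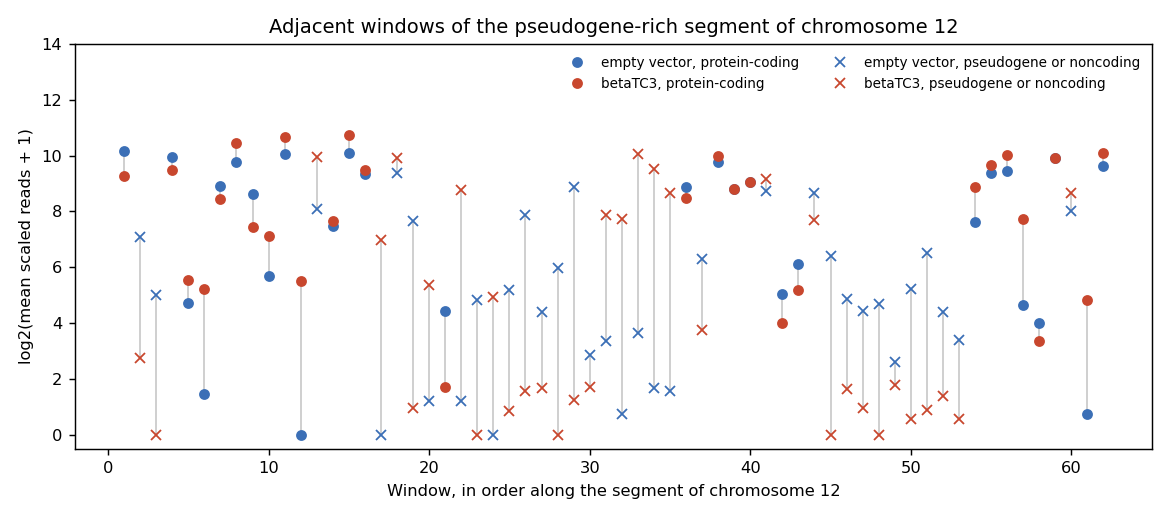
Mean level, as log2(mean scaled reads + 1), of the 62 windows from 15 to 25 Mb of chromosome 12 in order along the chromosome, for the empty vector (blue) and betaTC3 (red), with a line joining both means of a window. Crosses are pseudogenes or noncoding genes and circles protein-coding genes. Many crosses lie near 0 in 1 line or the other, while both circles lie within 1 of each other in 19 of the 28 protein-coding windows.

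The window values of that segment disagree with the peak lists. On chromosome 12, 98 windows had an empty-vector mean under 10 scaled reads, and 10 of them (10.2%) lay under a peak in both empty-vector lists, 7 of these from 15 to 25 Mb. For betaTC3 it was 10 of 72 (13.9%), with 9 in the segment. On chromosome 14 the shares were 6 of 101 (5.94%) and 2 of 42 (4.76%), and over all windows 2.97% and 3.06%. At Gm48398, which held 2.65 and 0 scaled reads with the empty vector, the authors' deposited table of peaks gave folds over background of 21.6 and 28.1 in the empty-vector lists and 44.6 and 35.2 in the betaTC3 lists. At Gm48667, near 0 in betaTC3 windows, the authors' deposited table gave 10.95 and 9.14 there. Pseudogenes in this segment can share reads with near-identical copies, so their changes are uncertain, and the part of shared reads was not tested. Meox2, Akap6, Thrb and Cacna2d3 show no such disagreement.

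The peak lists held 656 to 754 peaks on chromosome 12 and 596 to 646 on chromosome 14, fewer in betaTC3 library 1 than in any other. Of betaTC3 peaks found in both lists, 120 of 629 (19.1%) on chromosome 12 and 111 of 578 (19.2%) on chromosome 14 touched no empty-vector peak by at least 1 bp, beside 16.2% in the whole genome. In reverse, 123 of 731 (16.8%) and 73 of 625 (11.7%) empty-vector peaks touched no betaTC3 peak, beside 16.6%. Between knockdown and empty vector the same counts were 14 of 697 and 8 of 598 gained, beside 2.80% in the whole genome, and 17 of 731 and 6 of 625 lost, beside 1.58%.

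The comparison of Smndc1 knockdown with the empty vector did not enter the choice of the chromosomes and was tested. By limma over all windows, 0 windows of chromosome 12 and 0 of chromosome 14 were called at an adjusted p below 0.05, as were 0.0% of all windows. The smallest adjusted p on either chromosome was 0.0641, and 259 and 208 windows had an unadjusted p under 0.05, against 35.0% of all. By edgeR 0 windows were called on either chromosome, with 82 and 59 at an unadjusted p under 0.05 (12.4% of all). DESeq2 also called 0, beside 0.0799% of the 12511 windows to which it gave an adjusted p. It had 43 and 31 at an unadjusted p under 0.05 (6.11% of all). Both medians lay at the level of the whole table, -0.41 and -0.38 beside -0.37, and on the deposited scaling every bin of both chromosomes was below 0. With libraries centred on their medians the chromosome medians were -0.036 and -0.0040. Knockdown libraries lay below both empty-vector libraries in 441 and 345 windows and above them in 36 and 30, where 64.6% and 6.85% of all windows did. Without knockdown library 2, limma called 241 windows on chromosome 12, 4 higher and 237 lower, and 182 on chromosome 14, 9 higher and 173 lower, where the lone library is taken to vary as the other groups do.

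The windows closest to the threshold between knockdown and empty vector were mostly faint. Plek2, which is related to pleckstrin, was at 0 in both empty-vector libraries and at 11.9 and 6.99 scaled reads after knockdown (log2 change 3.35 ± 0.32 SE, adjusted p = 0.0641 by limma). Enox1, in 1 of its windows, was at 0 and at 7.17 and 4.19 (2.70 ± 0.33 SE, adjusted p = 0.0641 by limma). Another Enox1 window, within 1 kb of the gene start, had group means of at least 100 scaled reads in both empty-vector alphaTC1 and betaTC3. Lamb1, a laminin chain, in a window 29812 bp from its start, was at 5.30 and 5.33 and then at 0 in both knockdown libraries (-2.66 ± 0.28 SE, adjusted p = 0.0641 by limma). Syt16 held 10.6 and 21.3 with the empty vector and 1.19 and 1.40 after knockdown, 83406 bp from its start (adjusted p = 0.0687 by limma).

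A window of higher level was among them. The noncoding 2900060N12Rik, in the segment from 15 to 25 Mb of chromosome 12, held 249 and 265 scaled reads with the empty vector, 115 and 110 after knockdown and 438 and 372 in betaTC3 (log2 change after knockdown -1.18 ± 0.14 SE, adjusted p = 0.0683 by limma). Among the rest, Sntg2, Tmem30b, Kbtbd6 and Gm48934 had higher values after knockdown and Gm49051, Gm31107 and Gm9348 lower ones, none above 27.5 scaled reads in any alphaTC1 library. None of the listed genes was called after knockdown by limma.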

How the data were processed

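Per the labels' protocols, 50 bp single reads came from NEBNext Ultra II libraries. Among the tools in the submitters' processing notes are MACS2 2.2.7.1, Picard 2.19.2 and Bowtie2 2.4.1, with builds mm10 and GRCm38, and settings were not found. The deposited table gives 1 normalised signal (coverage) value per library for each window, nearly all 401 bp wide. All values (100% in each library, tolerance 0.001) were whole multiples of 1 step, so whole reads could be recovered. The origin of the step, and any subtraction of input, are not given in the sources used here. With subtraction, read numbers, floors and counting intervals describe only the reads left. Each library has its own peak list, with the group's input as control per the peak names, and the lists carry the authors' score, their fold ratio over background and their −log10 p-values and q-values, of which positions and folds were used. Input samples were not analysed separately.

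Because the values are scaled and not raw counts, limma 3.58.1 was fitted to log2(scaled reads + 1) over all 17641 windows with 1 mean for each of the 3 groups and an intensity trend, Benjamini-Hochberg adjustment and a threshold of 0.05. edgeR 4.0.16 and DESeq2 1.42.0 on the recovered reads were alternatives, and the edgeR fit called 0 windows between knockdown and empty vector in the whole table. The limma, edgeR and DESeq2 fits were tested on simulated data. Further software was matplotlib 3.10.9, scipy 1.17.1, numpy 2.4.6, pandas 2.3.3, Python 3.11.15 and R 4.3.3. A group at 0 reads was set to a floor of 3 reads per library. A group with 1 to 3 reads gives a ratio of pooled reads with an exact 95% interval. Floors and intervals cover counting error only.

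The chromosomes, gene lists and tests were chosen with earlier results of these data known. Named windows were, per chromosome, the 5 farthest above and the 5 farthest below their 5 Mb bin among windows within 1 kb of a gene start, with a mean of at least 100 scaled reads in 1 group and no overlap between betaTC3 and empty-vector libraries. The 3 of highest level, the 3 of smallest p in each direction after knockdown, list members within 10 kb and windows of bins that stand apart were added. Further examples from lists and bins were chosen after their values were seen. A list counts the nearest window of each gene. Lists covered islet signalling, developmental factors, chromatin regulators, the Dlk1 to Dio3 cluster, genes of all cells, tandem families (given as name prefixes, members kept after values were seen) and alpha and beta cell markers. Bins were set by window centre. A few list members are not reported here.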

Additional observations from a re-analysis of the deposited data

How the results depend on the processing

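Between knockdown and empty vector, limma called 19 windows on chromosome 12 and 15 on chromosome 14 with a pseudocount of 0.1, 10 and 6 without the intensity trend, and 1 and 1 when the fit held just these groups. It called 0 with a pseudocount of 10, centred libraries, windows of mean at least 10, edgeR or DESeq2. Leaving out each replicate in turn gave 0 to 241 on chromosome 12 and 0 to 182 on chromosome 14, the highest without knockdown library 2. The median knockdown change was -0.036 and -0.0040 with centred libraries, -0.029 and -0.0069 with edgeR scaling and -0.038 and -0.015 with DESeq2 size factors, so its distance from 0 rests on the authors' scaling.

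The median change from empty vector to betaTC3 on chromosomes 12 and 14 was 0.60 and 0.86 with centred libraries, 0.60 and 0.86 with edgeR scaling, 0.66 and 0.91 with DESeq2 size factors and 0.82 and 1.07 with the knockdown libraries as reference. It was above 0 in every alternative run of these same libraries. The chromosomes were chosen on this change, so nothing is read from that sign. The edgeR and DESeq2 scalings of these medians were chosen after seeing the data. Leave-one-out fits called 244 to 297 windows on chromosome 12 and 227 to 294 on chromosome 14, against 371 and 398, with the lowest of both without betaTC3 library 1. On chromosome 14 the count fell to 240 and 249 without either empty-vector library.

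Bin 3 of chromosome 12 moved from -0.11 to 0.081 in windows of mean at least 100 and to 0.072 with centred libraries, and bin 5 from -0.32 to 0.36 in windows of mean at least 100. The cause was not tested. Same-numbered libraries deviated together with r of -0.010, 0.085 and -0.177 over the 3 group pairs, and the numbers are therefore not treated as pairs. With a replicate block limma called 0 and 0 windows after knockdown, and 315 on chromosome 12 and 373 on chromosome 14 between betaTC3 and empty vector. With 2 libraries a group the depth of 4530066 to 9924487 reads leaves windows under about 10 scaled reads at few reads each.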
